A study of Ganoderma lucidum with 6 samples.

Results

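In all, 10 gene models of Ganoderma lucidum, a wood-decaying basidiomycete, carry the Gene Ontology (GO) identifier for terpene synthase activity, of 16113 models in the deposited table. All 10 were taken as members through that identifier. The rule for choosing them also names GL20733-G, GL20244-G and GL23369-G, which carry it as well and so added none. RNA sequencing was done on mycelia of the wild type at day 3, with 3 libraries from growth on ammonium sulfate, (NH4)2SO4, and 3 from growth on sodium nitrate, NaNO3. The comparison asks which of these genes differ between the nitrogen salts, which differ in sulfate and sodium too. The series title speaks of silencing the regulator AreA, and no library analysed here is labelled as silenced. The labels do not say whether the libraries of a group come from different cultures, so the p-values reflect the spread between libraries only, which may be technical.

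Terpene synthases take linear prenyl diphosphates made by the mevalonate route and fold them into hydrocarbon or alcohol skeletons. Farnesyl diphosphate gives sesquiterpenes and geranylgeranyl diphosphate gives diterpenes, and the diphosphate group is bound through magnesium ions. Squalene and lanosterol, from which the triterpenoids and sterols of this fungus derive, are made from the same farnesyl diphosphate by other enzymes. Fungal terpene synthase genes are known to lie at times beside genes for enzymes that oxidise the product, such as cytochromes P450. The table gives the members no product, so which terpene each one makes is not stated here.

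Total gene counts per library were between 19979528 and 27604895. Levels are FPKM, read fragments per kilobase of gene and per 1000000 fragments, as deposited by the authors. A fold change is given as the log2 of nitrate over ammonium, from edgeR's quasi-likelihood test on the counts, with p adjusted over 11993 tested genes by the Benjamini-Hochberg method. A gene is called when its adjusted p is under 0.05. In RNA from whole mycelia, fewer cells expressing a gene and less RNA per cell cannot be told apart.

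Of the 10 members, 8 passed the filter on low counts and 2 did not. GL20733-G and GL20244-G were higher in nitrate, GL23369-G was lower, and the other 5 were not called. The 3 called are 37.5% of the 8 tested, where 15.6% of all tested genes were called, 7.50% higher and 8.13% lower. They are the genes that the rule names, and the rule was written with earlier results of these data known. The median log2 fold change was 0.15 over the 8 members and 0.01 over all tested genes, and 4 members lay above 0 and 4 below. The libraries of the 2 groups did not overlap in FPKM for 4 members, as in 37.0% of all tested genes. The call of GL23369-G held without any 1 of the 6 libraries. Without ammonium replicate 2, ammonium replicate 3 or nitrate replicate 3 it was the only member called. Calls fell over the whole table in these fits, to 794 of 12121, 655 of 12113 and 701 of 12101 tested genes. With all 6 libraries 1874 of 11993 were called.

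**Figure D1:**
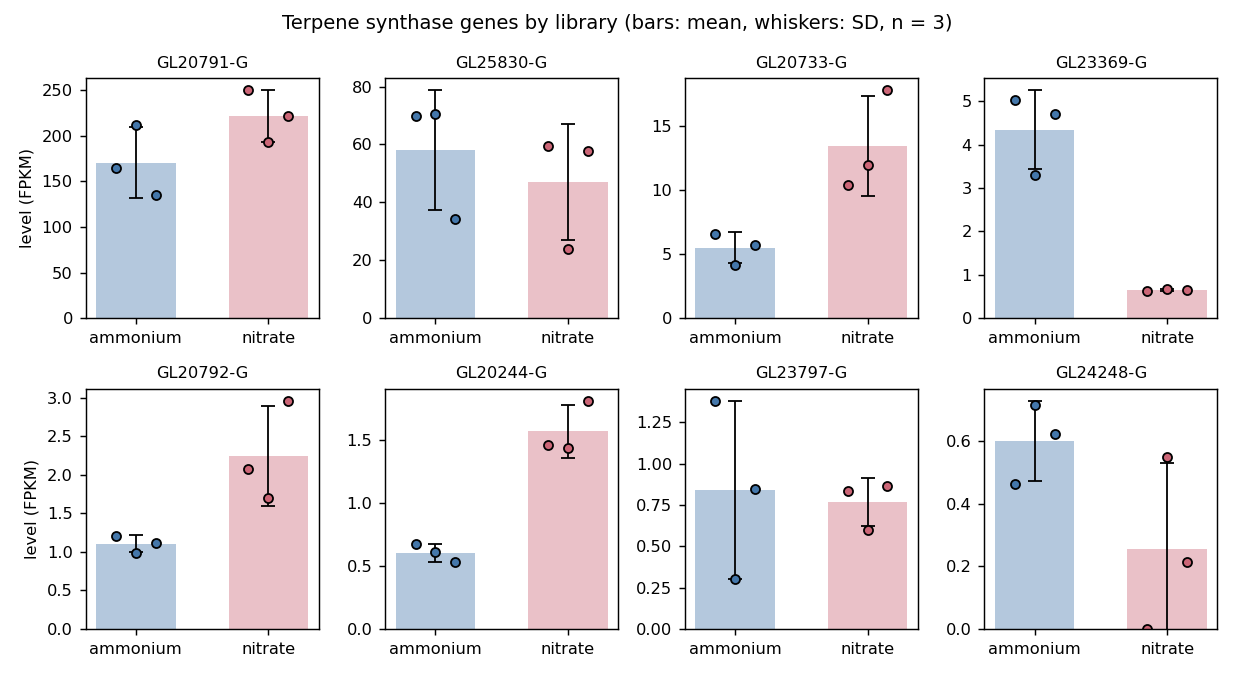
Level in FPKM of the 8 most abundant terpene synthase genes in each library, 1 panel a gene with its own axis from 0; bars are group means, whiskers are SD over 3 libraries (cut at 0 for GL24248-G) and points are libraries. GL20791-G and GL25830-G stood above 20 FPKM in every library, and the nitrate libraries of GL23369-G, at 0.626 to 0.681 FPKM, all lay below its ammonium libraries.

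Of the 8 tested members, GL23369-G had the largest fold change. It lies on scaffold 26 at 413554 to 414813, on the plus strand. Its level was 5.02, 3.31 and 4.72 FPKM in ammonium replicates 1 to 3 and 0.626, 0.681 and 0.657 FPKM in nitrate replicates 1 to 3. Every nitrate library was below every ammonium library, and the nitrate values were close to each other. The counts behind them were 149, 107 and 157 in ammonium and 19, 21 and 17 in nitrate. The mean fell from 4.35 ± 0.917 to 0.655 ± 0.0272 FPKM (SD, n = 3 and 3), a log2 fold change of -2.68 ± 0.26 (SE), or 6.40-fold lower (adjusted p = 0.000894, edgeR). In ammonium it was the fourth most abundant member, and in nitrate the seventh.

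GL20733-G, on scaffold 11 at 57661 to 58905, plus strand, was higher in nitrate. It stood at 6.60, 4.18 and 5.72 FPKM in ammonium and at 10.4, 12.0 and 17.8 FPKM in nitrate. The groups did not overlap, and nitrate replicate 3 was well above the other nitrate libraries. Its mean rose from 5.50 ± 1.23 to 13.4 ± 3.90 FPKM, with a log2 fold change of 1.27 ± 0.25 (SE), or 2.41-fold (adjusted p = 0.0141, edgeR). The call was lost without ammonium replicate 2 (adjusted p = 0.0575), ammonium replicate 3 (0.0599) or nitrate replicate 3 (0.0527), where the log2 fold change was 1.05 to 1.30.

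GL20244-G, on scaffold 8 at 1099563 to 1100727, plus strand, was a low gene that was higher in nitrate. It stood at 0.675, 0.606 and 0.530 FPKM in ammonium and at 1.46, 1.43 and 1.81 FPKM in nitrate. These levels rest on 19, 18 and 16 counts against 39, 40 and 41, and the groups did not overlap. The log2 fold change was 1.35 ± 0.29 (SE), or 2.54-fold (adjusted p = 0.0193, edgeR). Without ammonium replicate 2 or 3, or nitrate replicate 2 or 3, the adjusted p was 0.0521 to 0.0818, with log2 fold changes of 1.24 to 1.40.

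The most abundant terpene synthase gene, GL20791-G, was not called. It lies on scaffold 11 at 138176 to 139435, minus strand. Its level was 164, 212 and 135 FPKM in ammonium and 250, 193 and 222 FPKM in nitrate. The groups overlapped, because ammonium replicate 2 was above nitrate replicate 2. The means were 170 ± 39.1 and 222 ± 28.5 FPKM, with a log2 fold change of 0.37 (95% interval -0.17 to 0.91, adjusted p = 0.318, edgeR). It was 0.21 to 0.60 in the fits that left out 1 library. In ammonium, 94.9% of the genes in the table had a lower mean level, and in nitrate 95.9%.

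The second most abundant gene, GL25830-G, on scaffold 8 at 1104914 to 1106129, plus strand, was not called either. It stood at 69.9, 70.3 and 34.3 FPKM in ammonium and at 59.6, 24.1 and 57.6 FPKM in nitrate. Each group held 1 low library, ammonium replicate 3 and nitrate replicate 2, and the groups overlapped. The log2 fold change was -0.30 (95% interval -1.22 to 0.62, adjusted p = 0.650, edgeR), and 0.00 without nitrate replicate 2 (adjusted p = 0.997).

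GL20792-G, on scaffold 11 at 145151 to 146010, minus strand, did not pass the threshold although its groups did not overlap. Its level was 1.21, 0.987 and 1.12 FPKM in ammonium and 2.07, 1.70 and 2.96 FPKM in nitrate. Counts were 25, 23 and 26 against 43, 36 and 51. The log2 fold change was 1.00 ± 0.30 (SE, 95% interval 0.30 to 1.69), with an adjusted p of 0.0604 by edgeR and 0.0574 by DESeq2. In the 6 fits that left out 1 library the adjusted p was 0.0708 to 0.213.

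The other 4 members were low, with under 40 counts in every library. GL23797-G, on scaffold 3 at 1126909 to 1128163, had 9 to 37 counts in ammonium and 17 to 23 in nitrate, and a log2 fold change of -0.08 (95% interval -1.23 to 1.07, adjusted p = 0.932, edgeR). Its model overlaps GL23876-G on the opposite strand, which had 0 to 11 counts. The use of strand is not given, so how reads were divided between the 2 models is not known. GL24248-G, on scaffold 34 at 211979 to 213229, had 14, 22 and 20 counts in ammonium and 0, 16 and 5 in nitrate. Nitrate replicate 2 lay within the ammonium range, and the 0 of nitrate replicate 1 allows up to 0.123 counts per 1000000. The log2 fold change of GL24248-G was -1.26 with a 95% interval of -3.06 to 0.54 (adjusted p = 0.308, edgeR). Leaving out nitrate replicate 1 moved it to -0.70 and leaving out nitrate replicate 2 to -2.60, without a call.

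GL27625-G and GL27623-G lie beside each other on scaffold 2, at 590923 to 591770 and 592158 to 592529 on the plus strand. GL27625-G had 2, 0 and 3 counts in ammonium and 0, 5 and 0 in nitrate. GL27623-G had 0 counts in every library, which allows up to 0.109 to 0.150 counts per 1000000 in a library, for counting error only. Neither was tested. Their models span 848 and 372 bases, GL20792-G spans 860 bases, and the other 7 members span 1165 to 1260 bases.

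**Figure D2:**
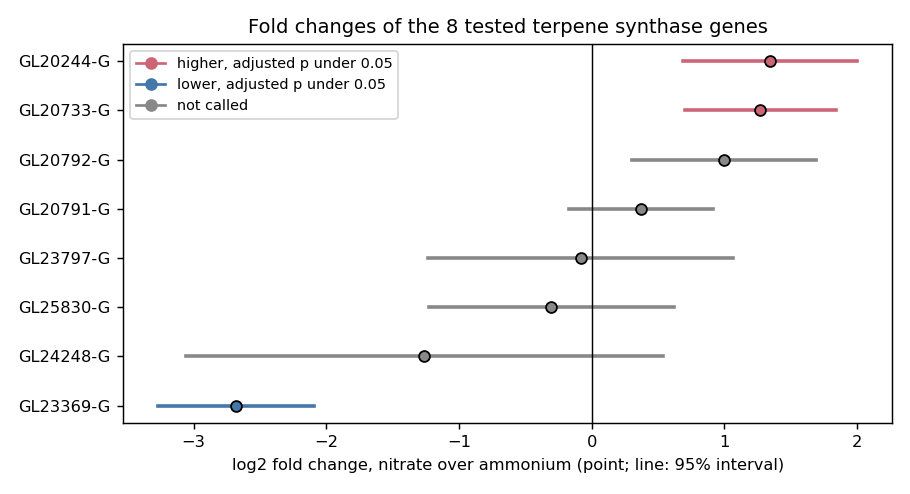
Log2 fold change of nitrate over ammonium for the 8 tested terpene synthase genes (points) with 95% intervals (lines), from edgeR on 3 against 3 libraries; red and blue mark an adjusted p under 0.05. GL20244-G at 1.35 and GL20733-G at 1.27 lay above 0, GL23369-G at -2.68 lay below, and the interval of GL20792-G (0.30 to 1.69) was above 0 without an adjusted p under 0.05.

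Levels differed widely between the terpene synthase genes, and FPKM, a level per length, allows them to be set side by side. In both groups GL20791-G was highest, then GL25830-G, then GL20733-G, and the libraries of GL20791-G and GL25830-G did not overlap each other in either group. In ammonium the order went on with GL23369-G, GL20792-G, GL23797-G, GL20244-G and GL24248-G. There GL20733-G overlapped GL23369-G, and each gene from GL20792-G to GL24248-G overlapped the next. In nitrate it went on with GL20792-G, GL20244-G, GL23797-G, GL23369-G and GL24248-G, with overlap between GL20792-G and GL20244-G and between GL23797-G and GL23369-G.

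The sum of FPKM over the 10 members was 249, 292 and 183 in ammonium and 325, 234 and 303 in nitrate. The groups overlapped. GL20791-G and GL25830-G together held 92.5% to 96.5% of that sum in ammonium and 92.0% to 95.3% in nitrate. GL20733-G held 1.43% to 3.13% in ammonium and 3.21% to 5.88% in nitrate. GL23369-G held 1.13% to 2.59% in ammonium and 0.193% to 0.290% in nitrate. 

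Annotation beyond the rule was shared as well. All 10 members carry the identifier for magnesium ion binding, which 95 other genes carry too. The identifier for terpenoid biosynthesis is carried by 8 genes in the whole table, and all of them are members. The 2 members without it, GL20244-G and GL25830-G, are neighbours on scaffold 8. No member has a KOG description or a KEGG entry.

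The members lie on 6 scaffolds, and 6 of the 10 lie in pairs less than 10 kb apart. GL20791-G and GL20792-G are 5715 bases apart on the same strand, with 1 model between them. GL20244-G and GL25830-G are 4186 bases apart, also on the same strand with 1 model between. GL27625-G and GL27623-G are 387 bases apart with none, and whether these short models are parts of the same gene was not tested. In both expressed pairs an abundant gene stood beside a low one. GL20792-G was at 0.465% to 0.830% of the FPKM of GL20791-G in ammonium and at 0.829% to 1.34% in nitrate, and these ranges met. GL20244-G was at 0.966%, 0.862% and 1.54% of the FPKM of GL25830-G in ammonium and at 2.44%, 5.96% and 3.15% in nitrate. These pairs were set side by side after their values were seen, and the ratios are given without a test.

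**Figure D3:**
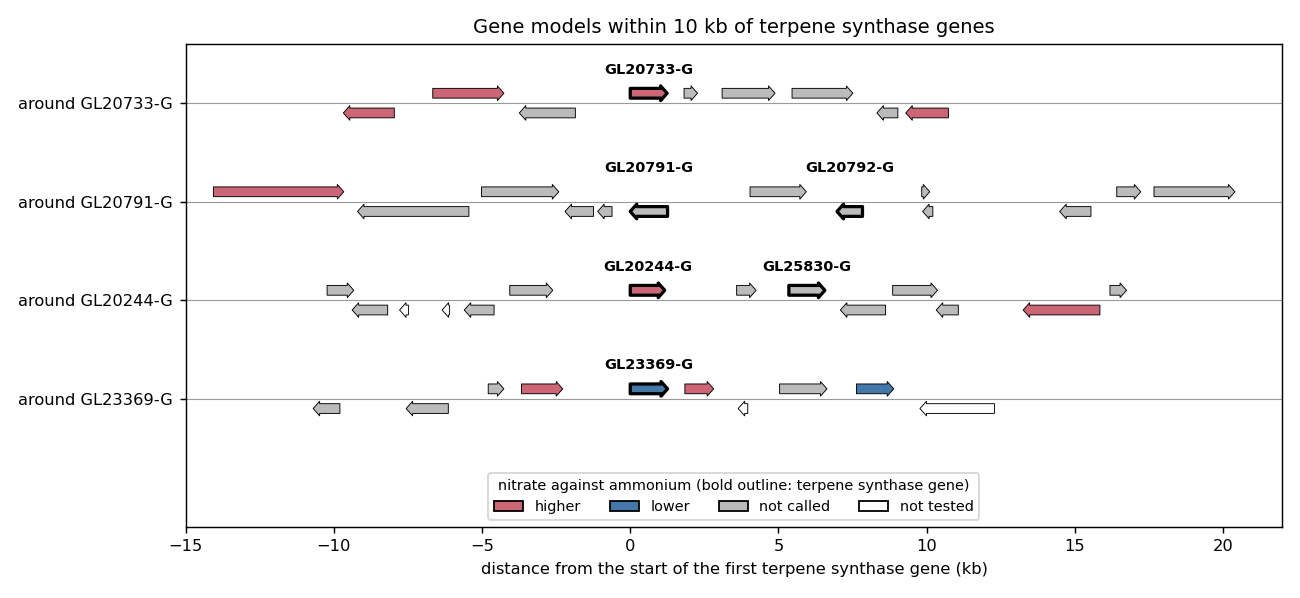
Gene models within 10 kb of terpene synthase genes at 4 places, drawn to scale by distance in kb from the start of the first terpene synthase gene; arrows give the strand, a bold outline marks a terpene synthase gene, and colour gives the call in nitrate against ammonium. Around GL23369-G, which was lower, 2 models were higher and 1 was lower, and around GL20733-G, which was higher, 3 models were higher. Over all tested models within 10 kb of the members 16.1% were called, and 15.6% of all tested genes.

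Within 10 kb of the members lie 65 other models, of which 56 were tested, 8 were higher and 1 was lower. That is 16.1% called, against 15.6% of all tested genes. The count was 5 without ammonium replicate 2 or 3, and 6 without nitrate replicate 3. In these fits called genes over the whole table fell from 1874 to 794, 655 and 701. No model within 10 kb carried the identifiers for monooxygenase activity or heme binding, used here as a mark of cytochromes P450. Only 300 of all 16113 genes carry them, so few would fall among 65 models at that share. Many of the 65 models carry no GO identifier at all, and of all genes 7069 carry any. A cytochrome P450 without an identifier could not be found this way, so whether these places lack one was not tested. The identifier for aldehyde oxidase activity is carried by 9 genes of the table, 5 of them on scaffold 11. Of these, 3 lie within 10 kb of a member: GL20662-G and GL26948-G around the scaffold 11 pair and GL26939-G beside GL20733-G. GL20662-G was higher, and GL26948-G and GL26939-G were not called (adjusted p = 0.975 and 0.126, edgeR). This identifier was looked up after the annotation of the neighbours was seen.

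Around GL20733-G, 3 of 8 neighbours were higher and none was lower, where 7.50% of all tested genes were higher and 8.13% lower. GL20735-G, described as a beta subunit of shaker-like potassium channels, a family of the aldo-keto reductase fold, lies on the same scaffold 11 at 66955 to 68393. It carries identifiers for oxidoreductase activity, aryl-alcohol dehydrogenase activity and the breakdown of aromatic compounds, and none for a channel. It rose from 40.1 ± 5.46 to 219 ± 30.3 FPKM (log2 fold change 2.44 ± 0.22, SE, adjusted p = 0.000762, edgeR). The amino acid transporter GL20655-G rose from 2.69 ± 0.376 to 6.84 ± 0.867 FPKM (adjusted p = 0.00485, edgeR). Both calls held in each of the 6 fits that left out 1 library, while that of GL20733-G did not. The neighbour GL20657-G, at 4.31 ± 1.68 and 10.5 ± 2.50 FPKM, was chosen after its values were known. Its call was lost in the 4 fits without replicate 2 or replicate 3 of either group (adjusted p = 0.0617 to 0.0977).

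The neighbours of GL23369-G moved in both directions. The models named here have no description and were chosen after their values were seen. GL28002-G, 6371 bases away on the same strand, fell from 33.8 ± 17.5 to 5.26 ± 1.26 FPKM, with a log2 fold change of -2.68 ± 0.45 (adjusted p = 0.00813, edgeR). GL19336-G, 2277 bases away on the other side, rose from 5.25 ± 1.04 to 14.5 ± 2.38 FPKM (adjusted p = 0.00477). The nearest model, GL28000-G, 583 bases away, rose from 0.320 ± 0.0894 to 1.41 ± 0.409 FPKM (adjusted p = 0.0124), a call that did not hold without ammonium replicate 2, ammonium replicate 3 or nitrate replicate 3 (0.0552 to 0.0584). The calls of GL28002-G and GL19336-G held without any 1 library.

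Around the scaffold 8 pair, 1 of 10 tested neighbours was called. It is the inorganic phosphate transporter GL25833-G, which went from 47.6 ± 5.52 to 83.7 ± 1.97 FPKM (adjusted p = 0.0141, and 0.0731 without ammonium replicate 2, edgeR). Around the scaffold 11 pair, 1 of 11 was called, GL20662-G, chosen with its values known (2.37 ± 0.138 and 4.22 ± 0.276 FPKM, adjusted p = 0.0184). That call did not hold without ammonium replicate 2, ammonium replicate 3 or nitrate replicate 2 (0.0576 to 0.0760). GL20790-G, beside GL20791-G, carries identifiers for a zinc-dependent transcription factor and for nitrate assimilation. It stood at 15.1 ± 3.47 and 23.6 ± 6.48 FPKM and was not called (adjusted p = 0.164). Around the scaffold 2 pair, GL22511-G, with the identifier for aspartic endopeptidase activity and also named after its values were seen, rose from 171 ± 47.5 to 434 ± 104 FPKM (adjusted p = 0.0215, and 0.0964 and 0.0768 without ammonium or nitrate replicate 3). Of 14 tested neighbours of GL23797-G and GL24248-G, edgeR, DESeq2 and limma called 0, and 0 by edgeR and limma and 2 by DESeq2 had an unadjusted p under 0.05 (limma tested 12).

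The mevalonate route, the prenyl diphosphate synthases and the branch from farnesyl diphosphate to lanosterol were followed in 20 other genes, all of them tested, taken by identifier or description. The list thus joins enzymes that supply the substrates of terpene synthases with enzymes that lead them to sterols. In nitrate 1 was higher and 6 were lower, or 35.0% called against 15.6% of all tested genes, with a median log2 fold change of -0.29. Without ammonium replicate 2, ammonium replicate 3 or nitrate replicate 3 the count was 4, all lower. Called genes over the whole table fell from 1874 to 794, 655 and 701 in the same fits. Its wording also took in enzymes outside both branches, such as the beta subunit of protein farnesyltransferase GL15842-G and the hydroxymethylglutaryl-CoA lyase GL21047-G, neither of which was called.

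Prenyl diphosphate synthases, which join the units that terpene synthases use, did not move together. GL22068-G, a polyprenyl synthetase with the identifiers for farnesyl and geranylgeranyl diphosphate synthesis, fell from 20.6 ± 0.806 to 9.07 ± 0.326 FPKM (log2 fold change -1.19 ± 0.15, SE, adjusted p = 0.00294, edgeR). GL25499-G, which has the same description and identifiers and was named after its values were seen, was the more abundant, at 57.4 ± 7.69 and 69.4 ± 10.5 FPKM, and was not called (log2 fold change 0.26, 95% interval -0.10 to 0.62, adjusted p = 0.295). GL24453-G carries the same identifiers for farnesyl and geranylgeranyl diphosphate synthesis as GL22068-G, so which of them it makes is not stated here. Described as a geranylgeranyl pyrophosphate synthase, it rose from 14.8 ± 0.782 to 26.8 ± 4.18 FPKM (adjusted p = 0.0133, edgeR). The adjusted p was 0.0527 to 0.0630 when ammonium replicate 2, ammonium replicate 3 or nitrate replicate 3 was left out. Another gene of that description, GL29478-G, which also carries an identifier for ubiquinone synthesis, was at 45.4 ± 7.61 and 35.6 ± 5.45 FPKM (adjusted p = 0.177).

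Of the enzymes that lead farnesyl diphosphate to sterols and triterpenoids, lanosterol synthase and squalene monooxygenase were lower, and squalene synthase was not called. Squalene synthase, GL21690-G, which joins a pair of farnesyl diphosphates, was at 52.8 ± 16.5 and 25.0 ± 7.03 FPKM (log2 fold change -1.08, 95% interval -1.83 to -0.33). It missed the threshold by edgeR (adjusted p = 0.0604) and passed by DESeq2 (adjusted p = 0.0127), and by edgeR without ammonium replicate 1 or nitrate replicate 1 (0.0151 and 0.0277). Squalene monooxygenase, GL23376-G, which turns squalene into oxidosqualene and was chosen with its values known, fell from 359 ± 63.6 to 126 ± 48.3 FPKM (adjusted p = 0.0133). Its adjusted p was 0.0533 to 0.0596 when ammonium replicate 2, ammonium replicate 3 or nitrate replicate 3 was left out. Lanosterol synthase, GL18675-G, which cyclises oxidosqualene, fell by 1.41 on the log2 scale (adjusted p = 0.00512, edgeR). GL23846-G came into the list by its description as a phytoene and squalene synthetase. Its identifiers are for the mitochondrial inner membrane, assembly of respiratory complex I, transferase activity and biosynthesis in general, and none names squalene synthesis. It was at 18.7 ± 2.41 and 15.1 ± 0.580 FPKM (adjusted p = 0.217, edgeR). Earlier in the route, mevalonate pyrophosphate decarboxylase GL25304-G and acetyl-CoA acetyltransferase GL26574-G fell by 1.37 and 1.26 on the log2 scale (adjusted p = 0.00294 and 0.00491, edgeR). The identifiers of GL26574-G include that for the mitochondrion, so its place in this route is not certain. Isopentenyl pyrophosphate isomerase GL29704-G also fell, by 0.77 on the log2 scale (adjusted p = 0.0141, edgeR). Its call was lost without ammonium replicate 2, ammonium replicate 3 or nitrate replicate 3 (0.0575 to 0.0736). HMG-CoA reductase GL24088-G and HMG-CoA synthase GL24922-G were not called, at log2 fold changes of 0.50 and 0.27 (adjusted p = 0.412 and 0.606, edgeR). Nor were the phosphomevalonate kinases GL17808-G and GL17809-G, at 0.19 and -0.27 (0.442 and 0.776). These lie close together on the minus strand of scaffold 7, at 543490 to 545041 and 545233 to 545526. GL17809-G spans only 294 bases, and whether both models are parts of the same gene was not tested. The isomerase, the HMG-CoA enzymes and the kinases were named for their place in the route.

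**Figure D4:**
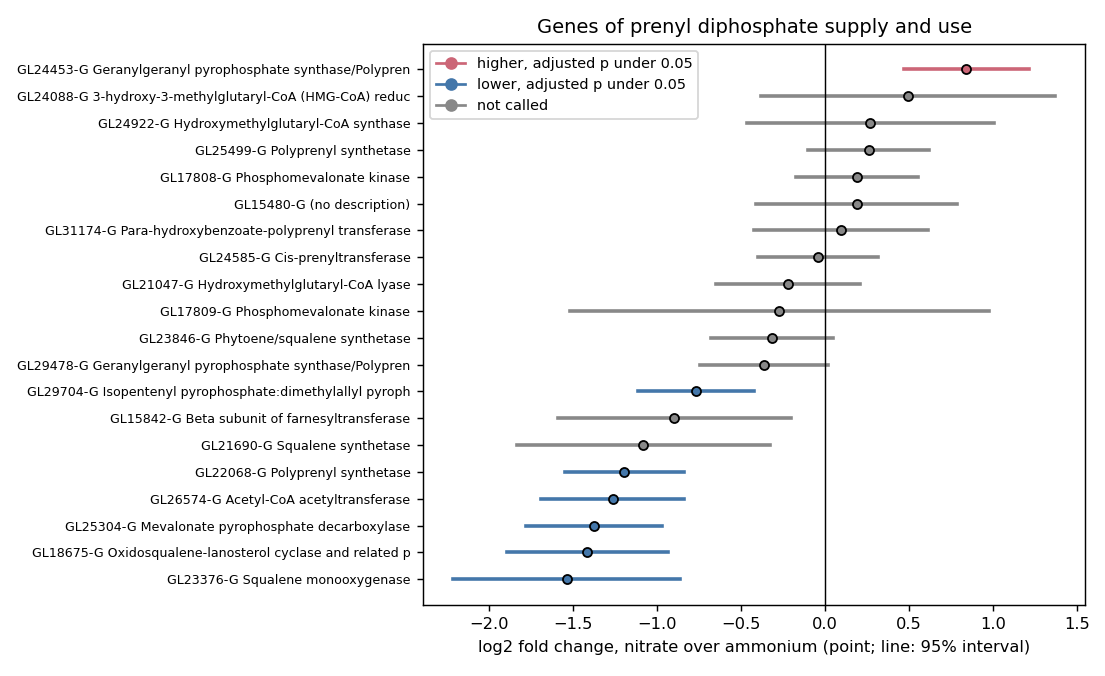
Log2 fold change of nitrate over ammonium (points) with 95% intervals (lines) for the list of 20 genes of the mevalonate route, prenyl transfer and the branch to lanosterol, from edgeR on 3 against 3 libraries; labels are the table's descriptions, some shortened. The geranylgeranyl pyrophosphate synthase GL24453-G was higher and 6 genes were lower, among them GL22068-G at -1.19 and GL18675-G at -1.41.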

How the data were processed

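The authors deposited 1 table with a row per gene and, per the file headers, raw counts, TPM and FPKM for each of the 6 libraries. The sources used here do not give the aligner, the counter, the genome build or the use of strand. Counts were the input of all main tests and FPKM as deposited gave the levels. TPM as deposited, with a sum of 1000000 checked in ammonium replicate 1 only, were not used further. Libraries were grouped by title. Scaffold positions are the table's own. No sequences were used, so read sharing between similar members was not checked.

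The main test was edgeR 4.0.16 (R 4.3.3, quasi-likelihood, TMM factors, filterByExpr, robust) on all 6 libraries without a block, over all genes. Standard errors and 95% intervals come from its F statistic. Alternatives were RLE factors, no filter, a filter of 50 counts in 3 libraries, the DESeq2 1.42.0 test, limma-trend 3.58.1 on log2(FPKM + 1) or log2(FPKM + 0.1) for genes of at least 1 FPKM in 3 libraries, the replicate number as a block, and each library left out. The edgeR, DESeq2 and limma code was also run on counts simulated with the dispersions of the main fit. That checks the code and not the calls made in these data. Depth of 3 counts corresponds to 0.109 to 0.150 counts per 1000000.

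Members and lists were chosen with earlier results of these data known. Every member is accounted for. Precursor genes named are those called, up to 4 per direction by smallest p, and farnesyl or geranylgeranyl pyrophosphate or squalene synthases. Neighbours named are those called with a description or an identifier for monooxygenase activity or heme binding. Genes outside this rule are marked as chosen after their values were seen, except those given for their annotation or place in the route. Descriptions are KOG names, since the table's own description column is empty.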

Additional observations from a re-analysis of the deposited data

How the results depend on the processing

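The direction and call of GL23369-G held under every alternative run. On the log2(FPKM + 1) scale, which understates changes of low genes, the limma values were -1.68 for GL23369-G, 0.68 for GL20244-G and 0.61 for GL20792-G, and with a pseudocount of 0.1 they were -2.54, 1.24 and 0.93. With RLE factors, no filter, DESeq2 and both limma fits, 3 members were called, and 2 with at least 50 counts in 3 libraries, where GL20244-G was not tested. The replicate number as a block gave 225 called genes in all, 1 member, 0 precursor genes (9 at an unadjusted p under 0.05 by edgeR; DESeq2 without a block called 9) and 2 neighbours. Under that block GL20244-G and GL20733-G kept log2 fold changes of 1.35 and 1.26 without a call (adjusted p = 0.144 and 0.0873), and GL23797-G turned to 0.068. Libraries of the same number deviated in opposite directions (correlations of deviations -0.66, -0.35 and -0.46), and those of different numbers correlated at -0.43 to 0.64. Deviations within a group sum to 0, which ties these values to each other. They therefore cannot decide whether the numbers mark a shared batch, and the labels do not say so. Without 1 library, called genes numbered 655 to 1946 in all, 1 to 3 members, 4 to 8 precursor genes and 5 to 10 neighbours. Log2 fold changes then ranged from 1.24 to 1.41 for GL20244-G, 1.05 to 1.39 for GL20733-G, -0.47 to 0.39 for GL23797-G and -0.59 to 0.0032 for GL25830-G. The last 2 changed sign, GL23797-G without ammonium replicate 1 or nitrate replicate 2 (0.39 and 0.070) and GL25830-G without nitrate replicate 2, and neither was called in any fit. The cause of these changes was not tested. The low-count filter kept 2 members out of the main test. Without it GL27625-G was tested and not called, and GL27623-G had no counts to test.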
